A study of Arabidopsis thaliana with 8 samples.

Results

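Of the 325 miRNA precursors listed for the phloem sap of *Arabidopsis thaliana*, 132 carry the number of MIR1886 or a higher one, which places them among the later entries of the miRBase registry. The 127 rows described here were chosen by that number alone, leaving out MIR2111a, MIR2111b, MIR5026, MIR5654 and MIR8172. Of these 5, MIR5026, MIR5654 and MIR8172 had an unadjusted p under 0.05 for iron in the test used below (0.0293, 0.0249 and 0.0243), with adjusted p-values of 0.645, and they are not in the counts given here. Overlapping rows with identical counts were taken as 1 measurement, which joined MIR5595a with MIR5995b, MIR5998a with MIR5998b and MIR5649a with MIR5649b and left 124 precursors of 20347 loci in all. All plants were wild type (WT) seedlings of the ecotype Col-0, raised on sterile iron-containing medium with diluted Murashige and Skoog salts until true leaves had formed, and they then spent 3 days on fresh medium either with iron (+Fe) or without it (−Fe). RNA was isolated from EDTA-assisted exudates of cut rosettes, pooled over many plants for each of the 4 biological replicates per condition.

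A plant miRNA is cut by a Dicer-like enzyme from the hairpin of a longer primary transcript and then guides an Argonaute protein to matching mRNAs. miRBase numbers follow the order in which sequences were submitted. Families with low numbers are mostly shared among land plants and regulate transcription factors, nutrient transporters and the silencing machinery, whereas many families with high numbers have been found in Arabidopsis and its close relatives only, by deep sequencing, and few have a well-studied target. Some of the later hairpins lie inside other genes or repeats. The values below are raw read counts of precursor loci, so the 2 arms of a hairpin and any other read from the same stretch are not separated. Counts are also given as CPM, the count divided by all counts of the library and scaled in the usual way. Positions follow the deposited table, for which the labels name the TAIR10 build, and names of neighbouring genes come from a RefSeq table of TAIR10.1, which gives gene spans without exons or introns.

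The 8 libraries held between 10347644 and 14116739 counts, and 48289054 counts in −Fe against 48339802 in +Fe when summed. A locus without a count may still have had up to 3 counts, or 0.213 to 0.290 CPM per library, a limit that covers counting error only because the reads carry no molecular identifiers. Loci with a count numbered 12117 in +Fe replicate 2 and 11269 in +Fe replicate 4, against 14214 to 16201 in the other 6 libraries. Fragments of marker transcripts were scarcer for phloem than for mesophyll. Of 6 genes of sieve elements or companion cells, SUC2, AHA3 and OPT3 had 140 counts in total (0 to 4.05 CPM per −Fe library and 0.0966 to 1.42 per +Fe library), whereas SEOR1, SEOR2 and PP2-A1 overlapped no locus. All 6 mesophyll genes (3 small subunits of Rubisco, 2 light-harvesting proteins and a carbonic anhydrase) had counts, 10976 together, with 71.0 to 155 CPM per −Fe library and 95.7 to 205 per +Fe library. These are small fragments and not transcript levels, and their part in the results below was not tested.

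Most of the late-numbered precursors were counted somewhere, but a minority of them everywhere. At least 1 count in some library was found for 91 of the 124 (73.4%), and 37 (29.8%) had a count in all 8 libraries. For comparison, among the 191 precursors with lower numbers, 156 (81.7%) had a count and 102 (53.4%) had one in all 8 libraries. The other 54 counted precursors were seen in 1 to 7 libraries, 9 of them in a single one, and 7 had fewer than 10 counts in total. With a minimum of 10 counts in each library, 24 precursors remained. Over the 8 libraries together, the 33 precursors without a count were under 0.0310 CPM.

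**Figure D1:**
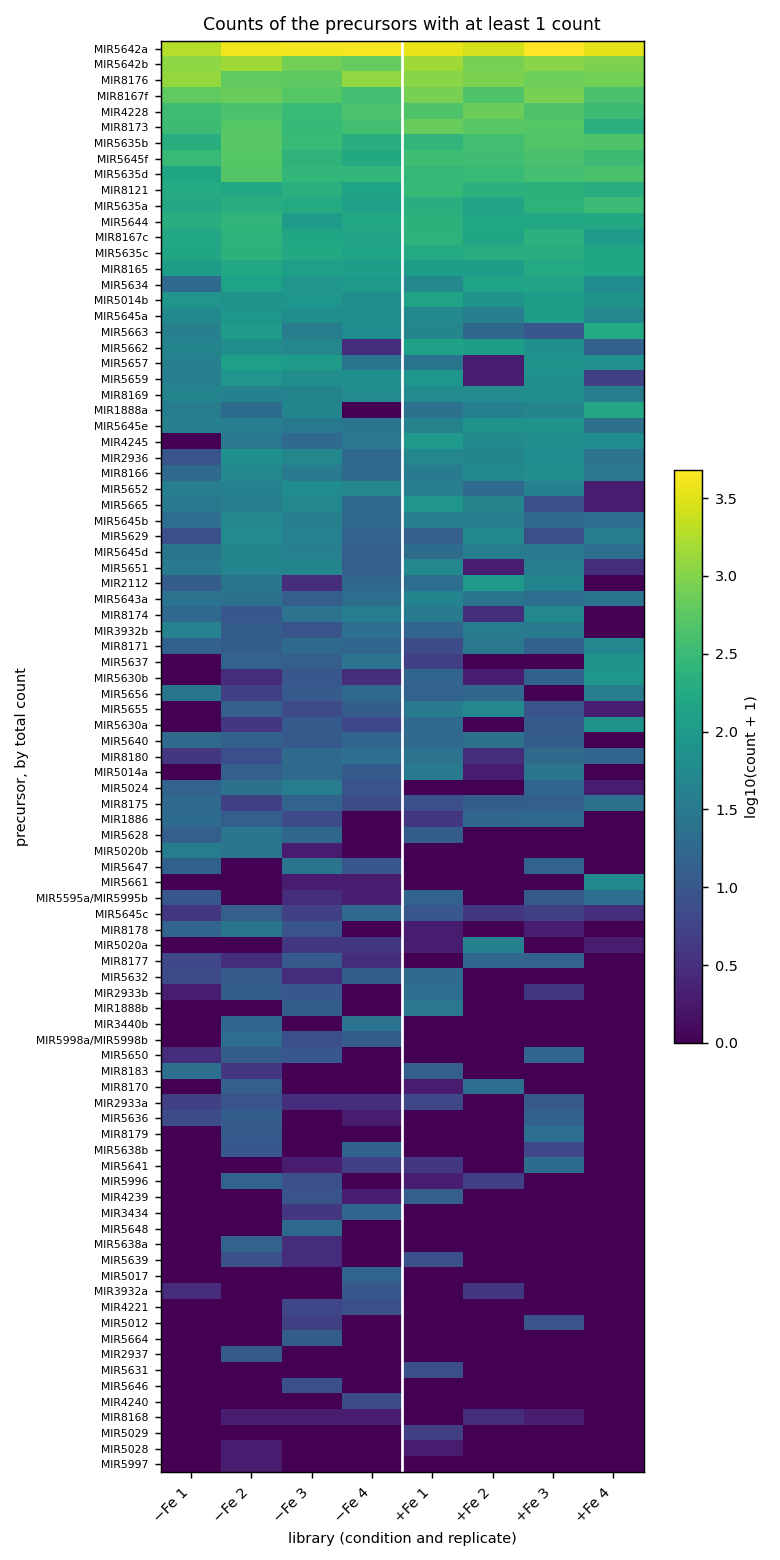
Counts of the 91 precursors with at least 1 count, as log10(count + 1), with precursors ordered by total count from top to bottom and the 8 libraries in columns (−Fe replicates 1 to 4, then +Fe replicates 1 to 4, separated by the white line). The darkest cells are counts of 0. The 37 precursors counted in all 8 libraries lie mostly in the upper part, and the lower part breaks up into cells that are filled in 1 or a few libraries.

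Detection differed along the numbering. Of the 21 precursors from MIR5012 to MIR5595a, 10 had a count and MIR5014b alone had one in all 8 libraries. Of the 54 from MIR5628 to MIR5999, 46 had a count and 23 were counted in all 8. The 25 precursors from MIR8121 to MIR8184 had 18 with a count and 11 in all 8. Lower down, 8 of 12 (MIR1886 to MIR2939), 4 of 5 (MIR3434 to MIR3933) and 5 of 7 (MIR4221 to MIR4245) had a count, and in these 3 blocks together MIR2936 and MIR4228 were the precursors counted in all 8 libraries.

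The group held 83084 counts, 0.0860% of all counts and 5.20% of those of the distinct precursors. The counts lay at few precursors. MIR5642a alone held 34.7% of them, the 3 highest 53.2%, the 10 highest 78.9% and the 20 highest 90.7%. The median precursor with a count had 108 counts, against a median of 389.5 for the lower-numbered precursors that had one. Hairpin spans ran from 59 to 500 nt, so levels were also expressed per 100 nt. On that scale the order of the leaders changed: MIR5642a (79.2 CPM per 100 nt) was followed by MIR8176 (75.4), MIR8167f (64.9), MIR8173 (33.5) and MIR5642b (23.1).

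The 2 precursors with the most counts lie at the ribosomal DNA. MIR5642a is on chromosome 3 from 14196774 to 14197147, 52 nt before a locus with 23204175 counts that holds the rRNA genes AT3G41768 and AT3G41979. MIR5642b is on chromosome 2 from 2805 to 3176, inside a locus with 19099525 counts that holds AT2G01010 and AT2G01020. Both hairpins also overlap a short gene annotated as protein-coding, AT3G41762 and AT2G01008. The counts of MIR5642a were 1859, 3934, 4140 and 4462 in the −Fe libraries, given here and below in the order of replicates 1 to 4, and 3631, 2655, 4773 and 3402 in the +Fe libraries. −Fe replicate 1 was the lowest of the 8, and the other −Fe libraries lay within the +Fe range. MIR5642b had 1148, 1445, 794 and 647 counts in −Fe and 1419, 838, 1063 and 928 in +Fe. As CPM, MIR5642a was at 293 ± 80.3 (SD, n = 4) in −Fe and 299 ± 49.8 in +Fe, and MIR5642b at 84.6 ± 31.6 and 87.4 ± 9.71 (SD, n = 4). MIR5642b equals 0.0434% of the counts of the locus around it, and MIR5642a 0.124% of those of the rRNA locus beside it. Whether the reads at these hairpins come from a miRNA or from rRNA transcription was not tested.

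MIR8176, on chromosome 4 from 11795177 to 11795275, overlaps the snoRNA gene AT4G07075 and the lncRNA gene AT4G07070. snoRNAs guide chemical modification of rRNA. It had 1260, 605, 580 and 1192 counts in −Fe and 1047, 904, 739 and 775 in +Fe. The −Fe libraries formed 2 levels, replicates 1 and 4 above and replicates 2 and 3 below every +Fe library in counts, and the means were 76.5 ± 34.6 and 72.7 ± 13.3 CPM (SD, n = 4). MIR4228 (chromosome 1, 28889375 to 28889532) sits at the RNA gene AT1G09915. Its counts were 342, 414, 300 and 429 in −Fe and 469, 714, 446 and 331 in +Fe. Its +Fe mean of 41.8 ± 18.2 CPM rests on replicate 2, and the −Fe mean was 30.7 ± 3.61 CPM (SD, n = 4). MIR8173, on chromosome 5 from 7478569 to 7478673, overlaps no other annotated gene and had 331, 508, 288 and 368 counts in −Fe and 668, 529, 516 and 217 in +Fe. The groups overlapped for all of these precursors.

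**Figure D2:**
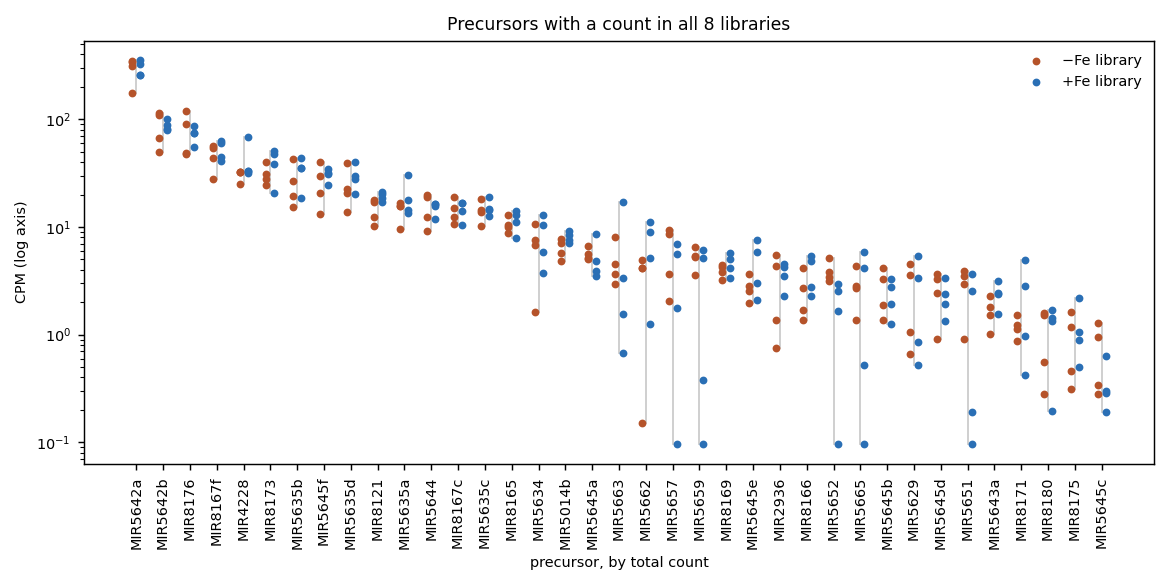
CPM on a log axis of the 37 precursors with a count in all 8 libraries, ordered by total count, with −Fe libraries in brown, +Fe libraries in blue and a grey line from the lowest to the highest library. The 15 precursors on the left span at most 3.19-fold between libraries, while several further right, such as MIR5657 and MIR5659, differ by more than 20-fold between libraries.

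Several numbers belong to more than 1 hairpin, and the copies of 12 such families can be set side by side. MIR8167 was counted at some copies only. Its 6 copies have the same length of 75 nt, and all 6135 counts lay at MIR8167f (chromosome 5 from 24002239 to 24002313, 4734 counts) and MIR8167c (chromosome 3 from 18843649 to 18843723, 1401 counts), while a, b, d and e had 0 counts in every library. MIR8167f had 593, 683, 515 and 367 counts in −Fe and 841, 462, 849 and 424 in +Fe, and MIR8167c had 158, 241, 148 and 140 and then 237, 147, 222 and 108. The locus that overlaps MIR8167d nevertheless held 2237 counts. The sequences of the copies were not compared. Reads that match several copies can be placed at any of them by the alignment, so the division among copies is uncertain.

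The 4 MIR5635 copies were all counted in every library. MIR5635b had 204, 540, 314 and 202 counts in −Fe and 263, 362, 477 and 457 in +Fe, MIR5635d had 145, 497, 268 and 274 and then 284, 306, 377 and 416, and MIR5635a and MIR5635c had 1588 and 1400 counts in total. Summed, the family was at 78.4 ± 27.2 CPM in −Fe and 96.8 ± 25.6 in +Fe (SD, n = 4), a difference within the spread. MIR5645 also had its 6 copies counted in every library, but MIR5645f held 2691 of 4097 counts and MIR5645c only 54. Its summed level was 40.3 ± 14.5 CPM in −Fe and 45.1 ± 7.27 in +Fe (SD, n = 4). MIR5643a had 194 counts and MIR5643b none. MIR5014b had 696 counts and MIR5014a, which lies within the glutamate decarboxylase gene GAD2, had 99.

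**Figure D3:**
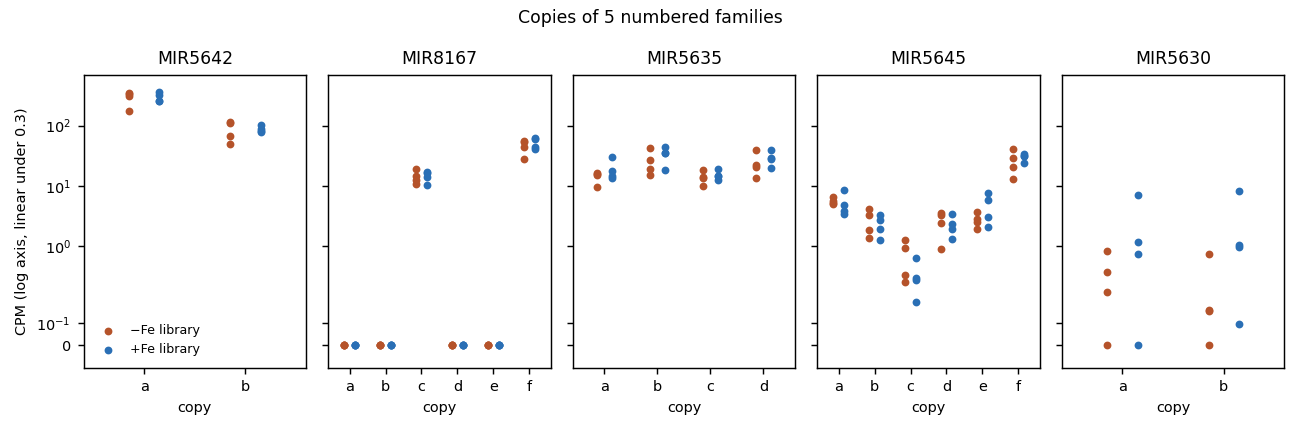
CPM of each copy of 5 families (MIR5642, MIR8167, MIR5635, MIR5645 and MIR5630) in each library, −Fe in brown and +Fe in blue, on an axis that is logarithmic above 0.3 CPM and linear below. Copies a, b, d and e of MIR8167 sit at 0 in all libraries, and both MIR5630 copies have 1 +Fe library far above the rest.

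MIR5630a and MIR5630b lie in nearby ribosomal protein genes, AT1G33120 and PGY2 (AT1G33140). MIR5630a had 0, 3, 10 and 5 counts in −Fe and 17, 0, 10 and 75 in +Fe, and MIR5630b had 0, 2, 9 and 2 in −Fe and 15, 1, 13 and 86 in +Fe. Both copies were highest in +Fe replicate 4, which held 62.5% and 67.2% of their counts, and both had 0 in −Fe replicate 1. In the other +Fe libraries the counts were 0 to 17 for MIR5630a and 1 to 15 for MIR5630b.

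Many of the late-numbered hairpins sit in other genes. Of the 124, 40 lie entirely within the span of a protein-coding gene and 50 overlap one, 15 overlap another RNA gene or a pseudogene, and 63 overlap no other annotated gene. Among the 91 with a count, 34 lie within a protein-coding gene, and among the 33 without one, 6 do. MIR2936 is within SAG21, a stress- and senescence-related gene, and had 8, 70, 52 and 18 counts in −Fe and 49, 44, 61 and 24 in +Fe. MIR5657, within the protease gene DEG14, MIR5640, within the callose synthase gene CALS1, and MIR5024, within the amino acid permease gene AAP5, had 462, 108 and 96 counts in total. MIR5636 lies within TAS1B, a transcript that gives rise to phased trans-acting siRNAs, and its 31 counts are 0.587% of the 5284 counted for that TAS locus. MIR5652 lies within AT1G63130, a gene listed in the table as a PPR locus, and its 281 counts are 3.52% of the 7986 counted there.

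Nearly every hairpin is also overlapped, in whole or in part, by a second row of the table, such as a longer cluster or an annotated transcript. Its reads may therefore be counted more than once. This holds for 111 of the 124. For the 83 precursors with at least 10 counts and such a row, the precursor's count was a median of 68.2% of the count of the row. In 28 of them it was at least 90%, with identical totals in 14, among them MIR5635a and MIR5663. In 17 it was under 10%, which means that most reads of the longer locus lay outside the hairpin. Of the 33 hairpins without a count, 15 overlapped a row that had counts and 12 overlapped no other row.

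Abundant precursors were even across the 8 libraries and rarer ones were not. The 15 with the most counts differed by at most 3.19-fold between their lowest and highest library. Of the 37 counted in all libraries, 23 stayed within 4-fold, and 7 spanned more than 20-fold. Coefficients of variation of the CPM ran from 19.1% (MIR5635c) to 100.2% (MIR5663), with a median of 37.8%. MIR8169 was among the most even in spite of its low level, with 45, 41, 45 and 58 counts in −Fe and 59, 59, 67 and 35 in +Fe, and so was MIR8165, with 111, 162, 118 and 115 and then 111, 115, 174 and 148. Both had a narrower range than MIR5642a.

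The widest ranges came from near-absence in single libraries, most often +Fe replicates 2 and 4. MIR5657 had 39, 120, 102 and 27 counts in −Fe and 25, 1, 76 and 72 in +Fe. MIR5659 had 38, 83, 64 and 69 in −Fe and 86, 1, 69 and 4 in +Fe. MIR5651, which overlaps the ubiquitin ligase gene RDUF1, had 31, 44, 46 and 12 in −Fe and 52, 1, 34 and 2 in +Fe. All 3 had 1 count in +Fe replicate 2, and MIR5659 and MIR5651 were also low in +Fe replicate 4, while +Fe replicates 1 and 3 had 25 to 86 counts. Of the 42 precursors with a count in each of the other 6 libraries and at least 10 in total, 10 had at most 1 count in +Fe replicate 2 or 4, and the same was true of 14 of 111 lower-numbered precursors. These are the 2 libraries with the fewest loci counted overall. MIR5662 showed the reverse, with 44, 62, 49 and 2 counts in −Fe and 128, 115, 69 and 13 in +Fe.

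**Figure D4:**
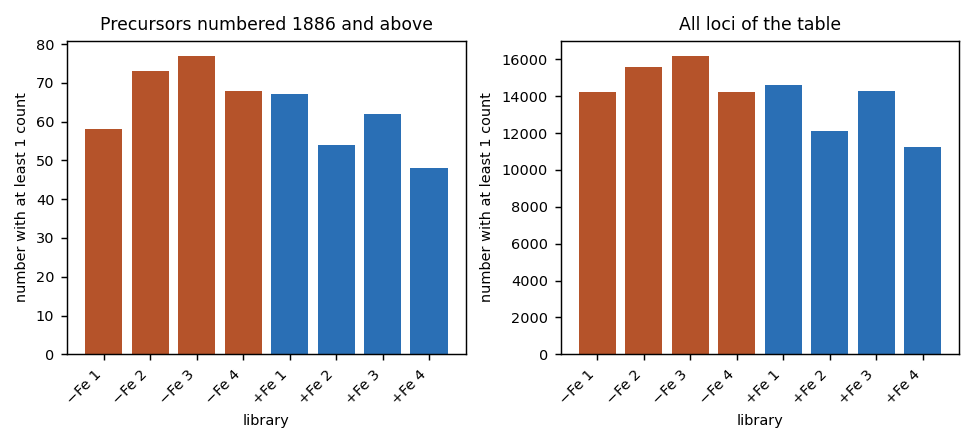
Number of late-numbered precursors (left) and of all loci (right) with at least 1 count in each library, −Fe in brown and +Fe in blue, with axes from 0. +Fe replicates 2 and 4 are lowest in both, with 54 and 48 precursors, and −Fe replicate 3 is highest in both, with 77.

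Per library, 58, 73, 77 and 68 of the 124 precursors were counted in −Fe, and 67, 54, 62 and 48 in +Fe, or 69.0 ± 8.21 and 57.8 ± 8.42 (SD, n = 4). The ranges overlapped. The number of all loci with a count was higher in −Fe as well, at 15068 ± 993 against 13066 ± 1627 (SD, n = 4), and so was that of the lower-numbered precursors, at 134.5 ± 5.07 against 123 ± 6.22. The summed level went the other way: 765, 948, 823 and 757 CPM in −Fe and 830, 907, 925 and 929 in +Fe, with means of 823 ± 88.3 and 898 ± 46.3 (SD, n = 4). This difference of -74.5 CPM depends on the scaling and was 49.0 with library totals scaled by edgeR's TMM factors. Without MIR5642a and MIR5642b the means were 445 ± 70.0 and 512 ± 42.5 CPM (SD, n = 4).

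The effect of iron was fitted over the whole table by the quasi-likelihood test of edgeR, for the 17722 loci with at least 10 counts, of which 84 were late-numbered precursors. Calls required an adjusted p (Benjamini-Hochberg) under 0.1 together with a log2 fold change beyond 0.5 upwards or downwards. None of the 84 was called, as none of all 17722 loci was (0%), and the smallest adjusted p of a precursor was 0.645. DESeq2, the study's own tool, also called none of them (smallest adjusted p 0.248, given for 55), against 34 loci (0.192%) overall. At an unadjusted p under 0.05 edgeR had 4 of the 84 (4.76%), against 6.69% of all loci tested. All 4 were higher in −Fe, a direction found for 4.86% of all loci, and none was lower, against 1.83%. This one-sided count depended on the fit. DESeq2 had 6 precursors (7.12% of all loci), 4 higher (4.54%) and 2 lower (2.58%). edgeR with library totals in place of TMM factors also had 6 (7.19% of all loci), 3 higher (3.88%) and 3 lower (3.31%). The 4 by edgeR passed the minimum of 10 counts through their −Fe counts alone. All these shares of all loci include MIR5654, MIR5026 and MIR8172, which the rule keeps out of the 84. Their edgeR log2 fold changes were 1.88, 0.64 and -0.79, each with an unadjusted p under 0.05. The choice of members thus lowers the count at that p and leaves out a lower precursor, so the comparison with all loci is description only.

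Fitted log2 fold changes of the 84 had a median of 0.09, beside 0.07 for all loci tested, and 47 of them (56.0%) were above 0, beside 53.4% of all loci. With library totals in place of TMM factors, 39 were above 0 and the medians were -0.04 and -0.12. Among the 37 precursors counted in all libraries, 29 had a log2 fold change under 0.5 in size, and the values ran from -0.93 (MIR5662) to 1.28 (MIR5652). Along the numbering, the 43 tested precursors from MIR5628 to MIR5999 had 28 above and 15 below 0, and the 17 from MIR8121 to MIR8184 had 8 above and 9 below. Abundant precursors had small fitted changes, and with library totals those of MIR5642a, MIR5642b, MIR8167c, MIR5635c and MIR8165 turned from positive to negative. The log2 fold change of MIR5642a was 0.21 (SE 0.23), that of MIR8167f -0.04 (SE 0.24), that of MIR5635b -0.19 (SE 0.26) and that of MIR8176 0.34 (SE 0.29), with edgeR adjusted p-values of at least 0.984.

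**Figure D5:**
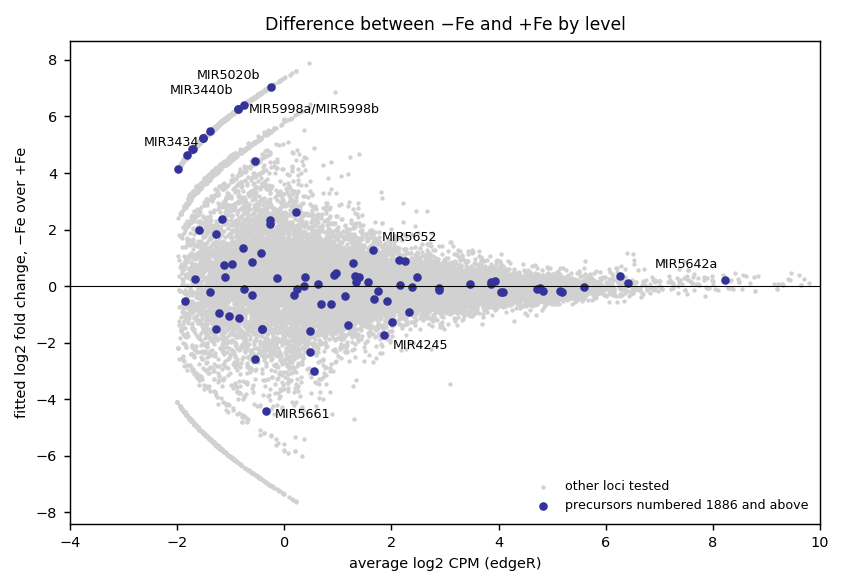
Fitted log2 fold change of −Fe over +Fe (edgeR) against the average log2 CPM for the 17722 loci tested, with the 84 late-numbered precursors as dark points over the other loci in grey. Abundant precursors such as MIR5642a lie near 0, and those with the largest fitted changes, such as MIR5020b and MIR3440b, lie on the upper arc, which holds loci with no count in +Fe.

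Unadjusted p-values under 0.05 came from MIR5020b (0.00977), MIR5998a with MIR5998b (0.0210), MIR3440b (0.0233) and MIR3434 (0.0458), each with an edgeR adjusted p of 0.645 over all loci. None had a count in +Fe or in all 4 −Fe libraries, so the size of a fitted change is not determined by the counts. MIR3440b, on chromosome 3 from 6217476 to 6217600 within the transcribed pseudogene AT3G18145, had −Fe counts of 0, 15, 0 and 24. Its mean was at least 2.97-fold higher than the +Fe limit of 3 counts per library, and at least 1.56-fold without −Fe replicate 4. The longer locus around it also had no +Fe count, and 0, 15, 4 and 24 counts in −Fe. MIR3434, on chromosome 5 from 7583055 to 7583403 within the alpha-adaptin gene alpha-ADR (AT5G22770), had 0, 0, 3 and 15 counts in −Fe, at least 1.37-fold higher, and without −Fe replicate 4 its mean was under the limit. The locus that shares 115 nt with it had 0, 0, 8 and 0 counts in −Fe and 0, 0, 1 and 0 in +Fe.

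MIR5020b lies on chromosome 4 from 6787003 to 6787153 and overlaps no other annotated gene. Its −Fe counts were 34, 27, 1 and 0, with a mean at least 5.36-fold above the +Fe limit, and at least 2.91-fold without −Fe replicate 1. The locus of 4387 nt that contains it had 77, 123, 77 and 36 counts in −Fe and 57, 6, 89 and 59 in +Fe, or 6.55 ± 2.89 and 4.22 ± 2.65 CPM (SD, n = 4), with overlapping groups and an unadjusted edgeR p of 0.231 (adjusted p = 0.969). Its copy MIR5020a, at 6791301 to 6791470 on the same chromosome, had −Fe counts of 0, 0, 3 and 3 and 1, 41, 0 and 1 in +Fe, with 83.7% in +Fe replicate 2, and MIR5020c had none. MIR5998a and MIR5998b share a stretch of chromosome 5 (MIR5998a from 3247228 to 3247424) that overlaps the lncRNA genes AT5G01705 and AT5G01725. They had 0, 20, 7 and 11 counts in −Fe, at least 2.97-fold above the limit and at least 1.88-fold without −Fe replicate 2, and the 156 nt locus inside them had the same counts. The study singled out MIR5020b, MIR5998a and MIR5998b on these same libraries, so their values are no independent evidence. For MIR5998a and MIR5998b the study prints higher counts in −Fe replicates 2 and 4 than the deposited ones used here. The lower bounds allow for counting error in +Fe alone. They take the −Fe mean as counted, without its own counting error or the spread between replicates.

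Altogether 10 of the 124 precursors had at least 10 counts in −Fe and none in +Fe. This is 11.9% of the 84 tested, against 5.98% of all loci tested, and 0 had the opposite pattern (1.57%). All 10 were tested only because of the −Fe counts that define the pattern, so their number is a description and no evidence of a difference between conditions. Beside those 4, they were MIR5648, MIR5638a, MIR5017, MIR4221, MIR5664 and MIR2937, with 10 to 17 counts each. None was counted in all 4 −Fe libraries and 4 were counted in 1 library only. Without +Fe replicates 2 and 4 there were 11, or 13.4% of the 82 then tested, against 8.56% of all loci. Leaving out single libraries gave 7 (without −Fe replicate 3 or 4) to 15 precursors (without +Fe replicate 3). By its definition this count cannot rise when a −Fe library is left out, or fall when a +Fe library is. The shares of all loci under these single omissions are not given here. The nearest case in the opposite direction was MIR5661, with 0, 0, 1 and 1 counts in −Fe and 0, 0, 0 and 57 in +Fe. Counts concentrated in a single library were found in both conditions. More than 50% of the counts lay in 1 library for 25 of the 84 precursors (29.8%), against 20.9% of all loci tested, with the leading library in −Fe for 14 and in +Fe for 11.

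The conditions did not overlap in CPM for 2 of the 84 precursors, which are named here after their values were seen. MIR5652 was higher in every −Fe library, as were 1.64% of all loci tested, and MIR4245 was lower, as were 1.32%. MIR5652 (chromosome 1 from 23412989 to 23413436) had 36, 40, 61 and 50 reads counted in −Fe and 36, 17, 40 and 1 in +Fe, or 3.87 ± 0.89 and 1.82 ± 1.28 CPM (SD, n = 4). Its log2 fold change was 1.28 (SE 0.89) with an unadjusted p of 0.162. The lowest −Fe library was close to the highest +Fe library, and the separation of MIR5652 depends on the scaling. With library totals scaled by the TMM factors (1.17 for −Fe replicate 2, 0.908 for +Fe replicate 1), the former fell below the latter and the groups overlapped. The PPR locus around MIR5652 was at 79.4 ± 17.2 CPM in −Fe and 86.8 ± 8.55 in +Fe (SD, n = 4). MIR4245, on chromosome 5 from 21161506 to 21161652 within AT5G52070, had 0, 29, 17 and 29 counts in −Fe and 96, 55, 62 and 61 in +Fe, or 1.48 ± 1.06 and 5.64 ± 0.92 CPM (SD, n = 4). It was lower by 1.72 on the log2 scale (SE 0.87), with an unadjusted p of 0.0584 and an edgeR adjusted p of 0.645. The locus of 2210 nt around it, of which the hairpin makes up 19.4% of the counts, was at 15.7 ± 2.60 and 20.9 ± 5.37 CPM (SD, n = 4) with overlapping groups.

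Loci over the 2 ends of a hairpin were counted in different conditions at MIR5640, which was also named after its values were seen. The hairpin itself had 18, 13, 10 and 15 counts in −Fe and 18, 23, 11 and 0 in +Fe, with a log2 fold change of 0.34, an unadjusted p of 0.824 and overlapping groups. It lies on chromosome 1 from 1653221 to 1653624, and the table lists a separate locus over each of its ends. Over the first end (1653125 to 1653366) the locus had no +Fe count and 18, 13, 10 and 15 in −Fe (unadjusted p 0.00659). The locus from 1653483 to 1654159 had none in −Fe and 18, 23, 28 and 0 in +Fe (unadjusted p 0.0101). Both had an edgeR adjusted p of 0.645. Each locus passed the minimum of 10 counts through 1 condition alone, so these p-values are description only. Of all loci tested, 5.98% had such counts in −Fe alone and 1.57% in +Fe alone. The second locus shares 142 of its 677 nt with the hairpin, and in +Fe replicate 3 it had 28 counts against 11. Where in the hairpin its own reads lay was not tested. MIR5024 had 14, 23, 35 and 8 counts in −Fe and 0, 0, 15 and 1 in +Fe, with overlapping groups (unadjusted p 0.144). The locus of 1461 nt around MIR5024 had 38, 28, 38 and 30 and then 0, 0, 15 and 1, with an unadjusted p of 0.0252 and an edgeR adjusted p of 0.645.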

How the data were processed

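Small RNA libraries of phloem exudates (4 −Fe and 4 +Fe biological replicates) were analysed, each assigned to its condition by its label. Adapters were trimmed by the authors with Cutadapt, with no limit on read size. They aligned and quantified the reads with ShortStack against TAIR10 per the labels (versions not given in the sources used here), and deposited raw counts per locus without normalization. A deposited column with the sum of the libraries was not used. No library column was left out.

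CPM used library totals of 10347644 to 14116739 counts, the precision of which is limited by counting error and by replicate spread. edgeR (version 4.0.16, limma 3.58.1, R 4.3.3) was fitted to all loci with at least 10 counts, with TMM factors from 0.743 to 1.17 and the condition as the model. SE values of log2 fold changes are the fold change divided by the square root of its F statistic. Lower bounds divide the mean CPM of the counted condition by the mean CPM that 3 counts per library give in the other. DESeq2 (version 1.42.0) was an alternative, and the fits were tested on simulated data. Other alternatives were a replicate block, other scalings and filters, other detection limits and leaving out libraries. Leaving out +Fe replicates 2 and 4 or MIR5642a and MIR5642b, and the count of precursors found in −Fe alone, were added after seeing the data. Deviations of same-numbered libraries had r from -0.00185 to 0.0492 over loci, and those of differently numbered libraries from -0.0470 to 0.0381. Such small values cannot decide whether the replicate numbers pair the libraries. Replicates differed beyond sampling noise (chi-square per degree of freedom at least 20.9).

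The members and lists were chosen with earlier results of these data known. Named precursors were those with a count in all 8 libraries, the 10 with the most counts, those with an unadjusted p under 0.05, and MIR5020b, MIR5998a and MIR5998b. MIR5090, also in that rule, is not among the precursors listed in these data. Others were chosen after their values were seen.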

Additional observations from a re-analysis of the deposited data

Results flagged for a closer look

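A library stood apart from the other 3 of its group, by Dixon's test, in 5 of 82 groups of 4 examined, where chance alone gives about 1 in 20. In MIR4228 this was +Fe replicate 2 (69.0 CPM against 31.7 to 33.2 in the other +Fe libraries) and also −Fe replicate 3 (25.3 CPM against 32.3 to 32.7). In MIR5635a, −Fe replicate 4 was low at 9.57 CPM, against 15.5 to 16.6. For MIR5663, +Fe replicate 4 was high at 16.9 CPM, against 0.670 to 3.33, and for MIR5662, −Fe replicate 4 was low at 0.152 CPM, against 4.13 to 4.89.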

How the results depend on the processing

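No late-numbered precursor was called under any alternative run. The number with an unadjusted p under 0.05 fell from 4 to 2 with the replicate block (1 of them higher in −Fe). It also fell to 2 (1 higher) without +Fe replicates 2 and 4. It was 0 with edgeR's filterByExpr filter, which tested 48 precursors in place of 84. That filter left out the 4 of the main fit, so they were not tested again. With single libraries left out the number was 4 to 5, of which 3 to 5 were higher in −Fe. The shares of all loci at that p under these settings are not given here, so these counts are description only. The median log2 fold change was 0.26 with the replicate block, beside 0.29 for all loci, and 0.052 to 0.25 with single libraries left out (0.25 without +Fe replicate 1). Whether the replicate numbers pair the libraries could not be decided, so the block is given as a setting only. Counts in all 8 libraries gave 37 to 41 precursors with a library left out and 24 at 10 counts per library, and counts in any library 88 to 91. The summed difference of -74.5 CPM ranged from -116 to -52.5 with single libraries left out and turned to 49.0 with TMM scaling. That scaling divides by the TMM factor, which was 0.743 in −Fe replicate 4 and 0.908 to 1.17 in the other libraries. Why the factors differ was not tested. The precursors with at least 10 counts in −Fe and none in +Fe numbered 7 to 15 with single libraries left out, a range given without the shares of all loci. Of the single fold changes of the 41 named precursors, 8 changed sign with library totals in place of TMM, none with DESeq2 or its size factors, and 14 without +Fe replicates 2 and 4, none of the 14 with an unadjusted p under 0.05 there. MIR3434 was the least stable of those under that p and lost it in 9 settings, among them DESeq2.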
